A study of Mus musculus with 6 samples.

Results

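Skeletal muscle transcripts were followed in RNA-seq libraries of mouse back skin. The genes were chosen by symbol: 38 genes of the sarcomere, of calcium release and uptake, and of muscle energy metabolism, out of 35275 genes in the deposited table. All 38 were found there, and 23 had enough counts for a test between genotypes. The 6 libraries came from the epithelial region of back skin of C57BL/6 mice, 3 from IL-33 KO mice, which lack the cytokine interleukin-33, and 3 from WT mice. Both genotypes had been painted on the back with 0.25% DNFB, a contact allergen, in acetone and olive oil, 3 times a week until day 22. No untreated skin was included, so every library is of treated skin. How the Il33 gene was disrupted, the age of the mice, and how deep the tissue was cut are not given in the sources used here.

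Skeletal muscle fibres contract by sliding thick filaments of myosin along thin filaments of actin, which are anchored at the Z-discs that border each sarcomere. Depolarisation of the membrane is sensed by an L-type calcium channel, which opens the ryanodine receptor of the sarcoplasmic reticulum. The released calcium binds troponin on the thin filament and is then pumped back. Fast and slow fibres carry different gene copies of many of these proteins, so their transcripts tell fibre types apart. Mouse skin is underlain by a thin sheet of striated muscle, the panniculus carnosus, which consists mostly of fast fibres. Epidermis itself has no sarcomeres, and smooth muscle in vessels and hair erector muscles uses other actin and myosin genes.

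The libraries held 20459574 to 24359612 counts each. Il33, the targeted gene, had 21, 22 and 11 counts in libraries IL-33 KO 1, 2 and 3, compared with 3906, 3086 and 2817 in WT 1, 2 and 3. Keratinocyte identity was plain in all libraries: 12 epidermal genes, among them Krt5, Krt14 and Krt10, summed to 30956 to 51669 CPM in IL-33 KO and 42710 to 72154 CPM in WT. CPM are counts relative to the scaled library size. Nothing in the labels states separate animals beyond the numbering of the samples, so the p-values given here reflect library-to-library spread, which may be technical.

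IL-33 KO 1 and IL-33 KO 3 stood apart from the other 4 libraries in muscle transcripts. The 38 genes together summed to 259 CPM in IL-33 KO 1, 50.9 in IL-33 KO 2 and 531 in IL-33 KO 3. In WT 1, 2 and 3 they summed to 36.2, 51.9 and 48.8 CPM. IL-33 KO 2 thus lay inside the WT range. As shares of all counts these were 0.0278% (95% exact binomial interval 0.0271% to 0.0285%), 0.00510% (0.00482% to 0.00540%) and 0.0537% (0.0527% to 0.0547%) in IL-33 KO 1, 2 and 3. The WT shares were 0.00337% (0.00313% to 0.00362%), 0.00488% (0.00460% to 0.00516%) and 0.00511% (0.00483% to 0.00540%). Counting error alone is covered by these intervals, as the labels name no molecular identifiers and reads may be copies of one molecule. In bulk RNA, more muscle cells in a piece and more muscle RNA per cell cannot be told apart.

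Gene by gene, 33 of the 38 members were higher in IL-33 KO 1 than in any WT library, and 35 were so in IL-33 KO 3. Among all 15720 tested genes these shares were 26.3% and 21.8%. IL-33 KO 2 exceeded all WT libraries in 14 members, lay within the WT range in 19 and below it in 5, where 25.2% of all tested genes exceeded it. The 38 include 15 members with too few counts to be tested, unlike the genes behind these percentages. Some places of IL-33 KO 2 rest on library scaling alone, as in Pvalb (1 count, and 1 in WT 3) and Myoz1 (6 counts, and 6 in WT 3). Both IL-33 KO 1 and IL-33 KO 3 exceeded WT in 33 members, against 11.8% of all tested genes. The highest level of the 6 was in IL-33 KO 3 for 33 members, in IL-33 KO 1 for 2 and in WT 3 for 3 (Myh7, Tnnc1 and Tnnc2).

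**Figure D1:**
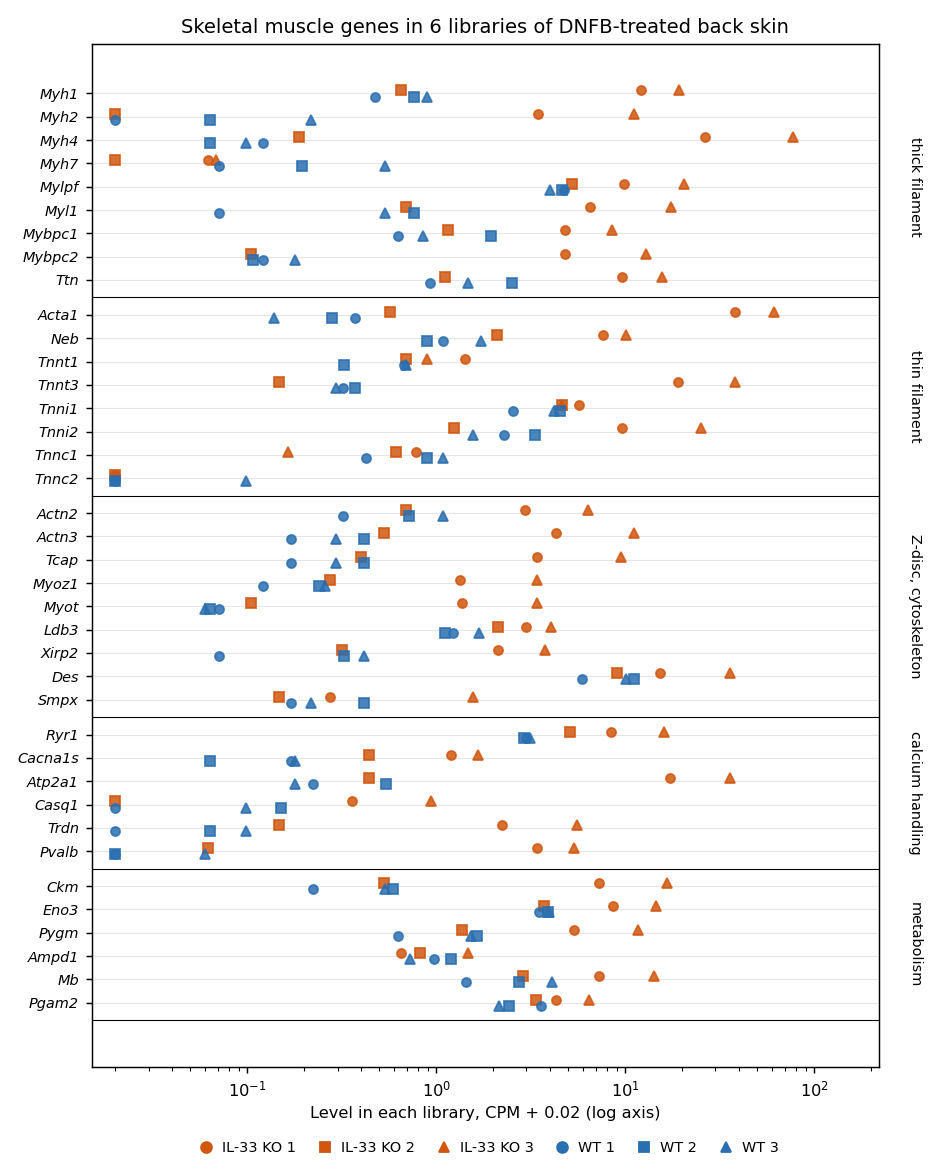
Level of each of the 38 muscle genes in each library, as CPM + 0.02 on a log axis, with IL-33 KO in orange, WT in blue and the library number as marker shape. The circles and triangles in orange (IL-33 KO 1 and 3) lie to the right of all WT points in 33 of 38 rows, while the orange squares (IL-33 KO 2) lie within the WT range in 19 rows.

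Among thick filament genes, the fast myosin heavy chains were abundant in IL-33 KO 1 and 3 alone. Myh4, the heavy chain of the fastest fibres (type IIb; ENSMUSG00000057003, chromosome 11, 67238029 to 67260446, plus strand; mm10), had 623, 4 and 1603 counts in libraries IL-33 KO 1, 2 and 3, compared with 2, 1 and 2 in WT 1, 2 and 3. That is 26.3, 0.169 and 77.5 CPM against 0.101, 0.0437 and 0.0789 CPM, so its IL-33 KO 1 and 3 levels were 353 and 1042 times the WT mean and its IL-33 KO 2 level was 2.27 times it. Myh1, the type IIx heavy chain, stood at 12.1, 0.633 and 19.2 CPM in the IL-33 KO libraries against 0.454, 0.742 and 0.867 in the WT libraries. Myh2, the type IIa heavy chain, stood at 3.42, 0 and 11.1 CPM and 0, 0.0437 and 0.197 CPM. All of these fast chains had a gap between IL-33 KO 1 or 3 and every other library, and in Myh1 and Myh2 the IL-33 KO 2 level was inside the WT range. Myh7, the slow heavy chain, did not share it, with 1, 0 and 1 counts in IL-33 KO libraries against 1, 4 and 13 in WT. Myh1, Myh2 and Myh4 lie side by side on chromosome 11 and have similar sequences, and the treatment of reads matching several of them was likewise not given in the sources used here.

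The light chains and binding proteins of the thick filament were also highest in IL-33 KO 1 and 3, some of them above a clear WT level. Mylpf, the fast regulatory light chain, was the most abundant member of the set in WT per transcript length, at 5.61 ± 0.160 FPKM (SD, n = 3; a level per gene length and library total, as the authors deposited it). It was at 9.78, 5.23 and 20.3 CPM in the IL-33 KO libraries against 4.74, 4.59 and 3.98 in the WT libraries (edgeR log2 fold change 1.41 ± 0.44 SE, adjusted p 0.465). Its 3 IL-33 KO libraries all lay above WT, IL-33 KO 2 by little. Myl1, the fast essential light chain, was at 6.49, 0.675 and 17.5 CPM against 0.0504, 0.742 and 0.513 CPM. Mybpc2, the fast myosin-binding protein C, had 113, 2 and 265 counts against 2, 2 and 4. Mybpc1, its slow counterpart, which fast fibres also express in part, was at 4.76, 1.14 and 8.46 CPM against 0.605, 1.92 and 0.828. Ttn, the elastic giant titin, was at 9.61, 1.097 and 15.7 CPM against 0.907, 2.49 and 1.46, and only WT 1 was lower than IL-33 KO 2.

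On the thin filament the largest gap was that of Acta1, skeletal muscle actin (ENSMUSG00000031972, chromosome 8, 123891767 to 123894736, minus strand; mm10). Acta1 had 904, 13 and 1258 counts in libraries IL-33 KO 1, 2 and 3, compared with 7, 6 and 3 in WT, or 38.1, 0.548 and 60.8 CPM against 0.353, 0.262 and 0.118. IL-33 KO 2 exceeded the highest WT library by 0.196 CPM only, whereas IL-33 KO 1 and 3 were at 156 and 249 times the WT mean. In edgeR its log2 fold change was 7.10 ± 1.54 (SE) and its adjusted p 0.314, the smallest among the members. Its coding sequence is close to those of the cardiac and smooth muscle actins Actc1 and Acta2, which did not share this pattern. Actc1 was at 2.49, 2.28 and 0.435 CPM in the IL-33 KO libraries against 1.01, 2.66 and 2.76 in the WT libraries, and Acta2 at 146, 67.5 and 92.5 and 57.7, 111 and 69.3.

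The promoters of Acta1, Myh4, Ckm and Tnni1 show how muscle genes with different patterns here compare in sequence. The first 3 (actin, the IIb heavy chain and muscle creatine kinase) stayed under 1 CPM outside IL-33 KO 1 and 3, whereas Tnni1, slow troponin I, was between 2.52 and 5.69 CPM in all libraries. Each run gives the 250 bases before the RefSeq start on GRCm38.p6, 5′ to 3′ on the gene's strand. Capitals mark every match to 5 motifs: the E-box CANNTG bound by myogenic factors, the MEF2 site, the CArG box of serum response factor, the MCAT motif CATTCCT of TEAD factors (all searched on both strands) and the TATA box TATAAA (gene strand only). The positions are chr8:123894776-123895025 (minus strand) for Acta1, chr11:67237562-67237811 (plus) for Myh4, chr7:19410844-19411093 (plus) for Ckm and chr1:135799171-135799420 (plus) for the more upstream of the 2 Tnni1 entries.
Acta1: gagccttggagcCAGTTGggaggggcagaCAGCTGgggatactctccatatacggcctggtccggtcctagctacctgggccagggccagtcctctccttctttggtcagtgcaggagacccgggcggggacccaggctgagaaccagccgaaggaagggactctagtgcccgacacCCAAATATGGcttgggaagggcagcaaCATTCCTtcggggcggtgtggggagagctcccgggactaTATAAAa
Myh4: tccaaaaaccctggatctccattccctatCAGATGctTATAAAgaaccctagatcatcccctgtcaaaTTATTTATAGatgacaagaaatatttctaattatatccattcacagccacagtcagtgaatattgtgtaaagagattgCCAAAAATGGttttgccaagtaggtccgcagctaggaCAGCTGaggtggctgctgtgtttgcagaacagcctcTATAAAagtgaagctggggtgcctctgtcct
Ckm: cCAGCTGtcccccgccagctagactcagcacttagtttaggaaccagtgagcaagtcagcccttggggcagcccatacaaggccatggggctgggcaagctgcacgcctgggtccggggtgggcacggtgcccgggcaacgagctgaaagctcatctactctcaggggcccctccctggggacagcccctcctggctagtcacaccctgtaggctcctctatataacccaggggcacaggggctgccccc
Tnni1: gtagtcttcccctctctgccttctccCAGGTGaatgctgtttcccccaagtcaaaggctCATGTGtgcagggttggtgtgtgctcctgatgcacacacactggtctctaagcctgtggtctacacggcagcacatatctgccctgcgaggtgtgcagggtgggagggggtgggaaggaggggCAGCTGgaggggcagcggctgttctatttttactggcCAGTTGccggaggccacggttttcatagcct
Acta1 held 2 E-boxes, 1 CArG box, 1 MCAT motif and 1 TATA box, and Myh4 held 2 E-boxes, 1 MEF2 site, 1 CArG box and 2 TATA boxes. Ckm held 1 E-box and Tnni1 held 4, and neither held another of these motifs. The other Tnni1 entry, chr1:135799261-135799510, held 2 E-boxes and none of the other motifs. No matches overlapped in these windows.

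RefSeq gave promoters for 29 of the 38 members, in 35 entries because some genes have several starts. E-boxes were in 28 of the 35 (80%), against 66.2% of all 32851 promoters of that length. MEF2 sites were in 6 of 35 (17.1% against 2.92%), in Myh1, Myh4, Pgam2, Pvalb, Ttn and Xirp2. CArG boxes were in 4 of 35 (11.4% against 1.47%), in Acta1, Myh4 and Ldb3. The MCAT motif was in 3 of 35 (8.57% against 4.51%) and the TATA box in 4 of 35 (11.4% against 7.59%). These are matches of letters in a short window and say nothing of binding.

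Troponin, the calcium switch of the thin filament, showed different patterns for its fast and slow forms. Tnnt3, fast troponin T, had 449, 3 and 788 counts in libraries IL-33 KO 1, 2 and 3, compared with 6, 8 and 7 in WT. Tnni2, fast troponin I, was at 9.61, 1.22 and 25.01 CPM against 2.27, 3.32 and 1.54 CPM, with IL-33 KO 2 the lowest of all 6 libraries. For the slow forms no such gap appeared. Tnni1, slow troponin I, was at 5.69, 4.597 and 4.59 CPM in the IL-33 KO libraries against 2.52, 4.498 and 4.18 in the WT libraries (edgeR log2 fold change 0.41 ± 0.26 SE, adjusted p 0.658). Tnnt1, slow troponin T, was at 1.39, 0.675 and 0.871 CPM against 0.655, 0.306 and 0.6703 CPM. Both had their highest level in IL-33 KO 1 and no overlap between genotypes, although IL-33 KO 2 was close to the highest WT library in each. Tnnc1, the troponin C shared by slow and cardiac muscle, was lowest in IL-33 KO 3, the library with the most muscle transcript, at 0.759, 0.5905 and 0.145 CPM in the IL-33 KO libraries against 0.403, 0.873 and 1.06 in the WT libraries. Its counts were few, at 18, 14 and 3 in the IL-33 KO libraries against 8, 20 and 27 in the WT libraries.

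Tnnc2, fast troponin C, was the exception among the fast genes. It had 0 counts in 5 libraries and 2 counts in WT 3, although its binding partners Tnnt3 and Tnni2 had 788 and 517 counts in IL-33 KO 3. In GENCODE M21 its exons overlap those of Ube2c, a protein-coding gene on the opposite strand. Whether this overlap bears on the Tnnc2 count was not tested. The exons of 16 members, Tnnc2 included, overlap a gene on the opposite strand there, and the use of strand in counting was among the details not given in the sources used here. Neb, nebulin, which spans the thin filament, was at 7.59, 2.07 and 10.01 CPM in the IL-33 KO libraries against 1.06, 0.873 and 1.695 in the WT libraries, with all IL-33 KO libraries above WT (log2 fold change 2.42 ± 0.57 SE, adjusted p 0.362 in edgeR).

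Z-disc genes repeated the split between IL-33 KO 1 and 3 and the rest. Actn3, the alpha-actinin of fast fibres, was at 4.301, 0.506 and 11.1 CPM in the IL-33 KO libraries against 0.151, 0.393 and 0.276 in the WT libraries. Actn2, the alpha-actinin of all striated fibres, was at 2.91, 0.675 and 6.34 CPM and 0.302, 0.699 and 1.06 CPM, with IL-33 KO 2 inside the WT range. Tcap, which caps titin at the Z-disc, had 80, 9 and 195 counts against 3, 9 and 7. Myoz1, a calcineurin-binding protein of fast fibres, had 31, 6 and 70 against 2, 5 and 6. Myot, myotilin, had 32, 2 and 70 counts against 1 in each WT library, a ratio of 34.7 for the pooled counts (95% counting interval 11.5 to 171). Spread between libraries is left out of that interval, and IL-33 KO 2 alone was at 1.90 times the WT mean. Xirp2, an actin-binding repeat protein, had 50, 7 and 77 counts against 1, 7 and 10. These low-count genes all pointed the same way in IL-33 KO 1 and 3.

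Des and Ldb3 of this group had a clear level in every library. Des, desmin, the intermediate filament of all muscle including smooth muscle, was at 15.2, 9.03 and 35.6 CPM in the IL-33 KO libraries against 5.896, 11.05 and 10.01 in the WT libraries. IL-33 KO 2 lay within the WT range of Des and IL-33 KO 3 was 3.97 times the WT mean. Ldb3, a PDZ-LIM protein of the Z-disc, was at 2.95, 2.11 and 4.01 CPM and 1.21, 1.09 and 1.66 CPM, without overlap between genotypes (log2 fold change 1.19 ± 0.33 SE, adjusted p 0.434 in edgeR). Smpx, a small cytoskeletal protein of striated muscle, had 6, 3 and 32 counts against 3, 9 and 5, so only IL-33 KO 3 stood out in this low-count gene.

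Calcium-handling genes were close to absent in WT, except for Ryr1. Ryr1, the calcium release channel (chromosome 7, 29003340 to 29125151; mm10), was at 8.35, 5.06 and 16.1 CPM in libraries IL-33 KO 1, 2 and 3, all above the 2.88 to 3.11 CPM of WT. In edgeR its log2 fold change was 1.71 ± 0.40 (SE) and its adjusted p 0.354. It was one of the members in which IL-33 KO 2, at 1.69 times the WT mean, also stood above a narrow WT range. Cacna1s, the voltage sensor that opens Ryr1, had 28, 10 and 34 counts against 3, 1 and 4, again with IL-33 KO 2 above WT.

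Atp2a1, the calcium pump of fast fibres (SERCA1; chromosome 7, 126445858 to 126463108), was at 17.2, 0.422 and 35.8 CPM in the IL-33 KO libraries against 0.202, 0.524 and 0.158 in the WT libraries (log2 fold change 5.89 ± 1.39 SE, adjusted p 0.365 in edgeR). Here IL-33 KO 2 fell within the WT range. Pvalb, the calcium buffer parvalbumin of fast fibres, had 80, 1 and 110 counts against 0, 0 and 1, a ratio of 191 (95% counting interval 33.9 to 7583). Trdn, triadin, which couples the release channel to calsequestrin, had 52, 3 and 114 counts against 0, 1 and 2, a ratio of 56.3 (95% counting interval 19.0 to 276). Both ratios and intervals are for counts pooled over the libraries of a genotype and leave out the spread between libraries. Nearly all counts of both genes came from IL-33 KO 1 and 3. IL-33 KO 2 was at 3.21 (Pvalb) and 3.10 (Trdn) times the WT mean, below the pooled intervals. Casq1, the calsequestrin of fast fibres, had few counts throughout, 8, 0 and 19 against 0, 3 and 2.

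Several genes of muscle energy metabolism had a clear level in WT, such as Pgam2 at 3.10 ± 0.748, Mb at 2.44 ± 1.33 and Eno3 at 2.34 ± 0.271 FPKM (SD, n = 3). Ckm, muscle creatine kinase, which regenerates ATP, had few counts there, at 7.21, 0.506 and 16.7 CPM in the IL-33 KO libraries against 0.202, 0.568 and 0.513 in the WT libraries (log2 fold change 4.20 ± 1.08 SE, adjusted p 0.389 in edgeR). Pygm, muscle glycogen phosphorylase, was at 5.31, 1.35 and 11.6 CPM against 0.605, 1.62 and 1.498. Eno3, the muscle enolase of glycolysis, was at 8.601, 3.71 and 14.5 CPM against 3.48, 3.89 and 3.903. In Ckm, Pygm and Eno3, IL-33 KO 2 lay within the WT range. Mb, the oxygen store myoglobin, was at 7.21, 2.87 and 14.1 CPM against 1.41, 2.71 and 4.06, and Pgam2, muscle phosphoglycerate mutase, at 4.301, 3.33 and 6.43 against 3.58, 2.402 and 2.13. Ampd1, muscle AMP deaminase, overlapped fully between genotypes at 0.632, 0.801 and 1.45 CPM against 0.957, 1.18 and 0.7097, a log2 fold change of 0.01 ± 0.42 (SE).

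Fast and slow fibre genes were then summed per length, in FPKM. The 14 fast genes (Myh1, Myh2, Myh4, Mylpf, Myl1, Mybpc2, Tnnt3, Tnni2, Tnnc2, Actn3, Atp2a1, Casq1, Pvalb and Myoz1) summed to 71.3, 9.64 and 152 FPKM in IL-33 KO 1, 2 and 3, compared with 8.71, 10.7 and 8.79 in WT 1, 2 and 3. The 5 slow genes (Myh7, Mybpc1, Tnnt1, Tnni1 and Tnnc1) summed to 6.69, 3.89 and 5.38 FPKM in IL-33 KO libraries, against 2.34, 3.86 and 4.55 in WT. The fast sum thus spanned a wide range set by IL-33 KO 1 and 3, while the slow sum stayed between 2.34 and 6.69 FPKM. Slow genes made up 8.58%, 28.7% and 3.43% of the combined FPKM in IL-33 KO libraries 1, 2 and 3, against 21.2%, 26.5% and 34.1% in WT. In IL-33 KO 2 and WT these shares rest on 84 to 184 slow counts, and 40.1% to 55.0% of the slow FPKM in every library came from Tnni1. Most of the fast FPKM in IL-33 KO 2 and WT came from Mylpf and Tnni2 alone. Mylpf was at 6.84 FPKM in IL-33 KO 2 and 5.76, 5.63 and 5.44 in WT 1, 2 and 3. Tnni2 was at 1.37 in IL-33 KO 2 and 2.36, 3.49 and 1.80 in WT. The shares of these libraries thus rest on few genes. With 6 further slow-fibre genes added (Myl2, Myl3, Casq2, Myoz2, Csrp3 and Myh7b) the shares kept the same 2 libraries lowest, at 17.8% in IL-33 KO 1 and 7.56% in IL-33 KO 3 against 46.0% to 60.7% elsewhere.

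**Figure D2:**
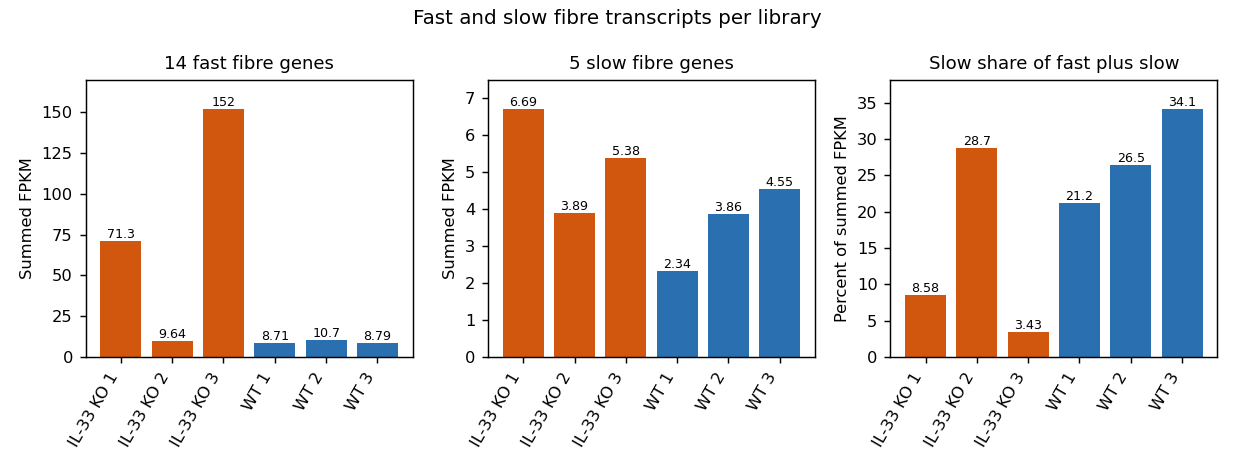
Bars from 0 give, per library, the summed FPKM of the 14 fast fibre genes, the summed FPKM of the 5 slow fibre genes and the slow genes' percent of both sums, with IL-33 KO in orange and WT in blue. The fast sum is 71.3 in IL-33 KO 1 and 152 in IL-33 KO 3 against 8.71 to 10.7 in the other libraries, while the slow sum lies between 2.34 and 6.69.

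Among the myosin heavy chains alone, Myh4 supplied 63.1% of the FPKM of Myh1, Myh2, Myh4 and Myh7 in IL-33 KO 1 and 72.1% in IL-33 KO 3. Myh1 supplied 28.7% and 17.7% there, Myh2 8.11% and 10.2%, and Myh7 0.0977% and 0.0434%. These libraries had 992 and 2230 counts for the 4 genes, whereas the others had 12 to 42, too few for shares to be read. The heavy chain composition in IL-33 KO 1 and 3 was therefore mostly that of type IIb and IIx transcripts, with some type IIa and almost no slow myosin. The split among the similar fast genes depends on the treatment of shared reads, which was not given.

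IL-33 KO 3 exceeded IL-33 KO 1 in most members. In the 33 members with at least 10 counts in both, the ratio of CPM in IL-33 KO 3 to IL-33 KO 1 had a median of 2.08, and 31 ratios were above 1. Over all 15132 tested genes with as many counts the median was 1.00. For 12 fast genes the ratio ranged from 1.58 (Pvalb) to 3.24 (Myh2), with a median of 2.59. The slow troponins Tnnt1 (0.626) and Tnni1 (0.807) were the members with a ratio below 1. Mybpc1, the third slow gene with enough counts, had a ratio of 1.78, inside the range of the fast genes.

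**Figure D3:**
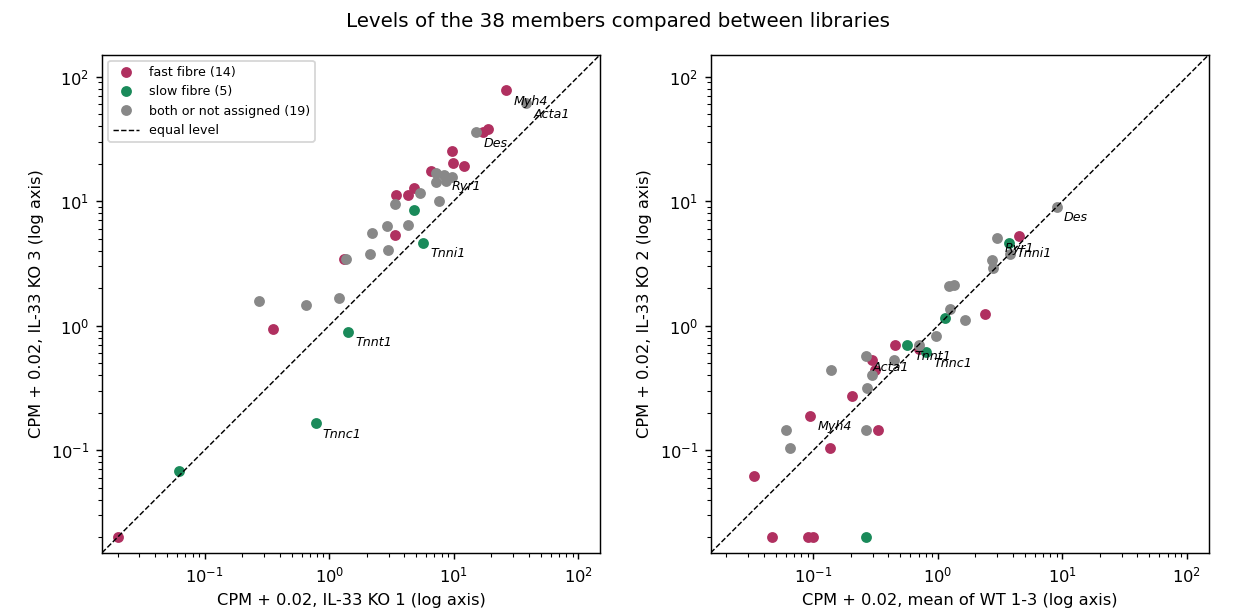
Each point is 1 of the 38 members, on log axes of CPM + 0.02, so that genes with no counts sit at 0.02. On the left most points lie above the line of equal level, with IL-33 KO 3 at a median of 2.08 times IL-33 KO 1, and on the right IL-33 KO 2, plotted against the WT mean, has points on both sides of the line.

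The genotype comparison asked whether IL-33 KO and WT skin differ in these genes under chronic allergen. In edgeR's quasi-likelihood test with adjustment over all 15720 tested genes, 0 of 23 tested members passed an adjusted p of 0.05, where 0.0191% of all tested genes passed, and the members' adjusted p ran from 0.314 to 0.994. At an unadjusted p under 0.05, 19 of the 23 were higher in IL-33 KO and 0 lower, where 4.87% of all tested genes were higher at that level. Without overlap between genotypes and higher in IL-33 KO were 8 of 23, namely Mylpf, Acta1, Neb, Tnnt1, Tnni1, Actn3, Ldb3 and Ryr1, against 7.46% of all tested genes. The median log2 fold change was 2.08 over these 23 and -0.01 over all tested genes. These 23 are not all members: 9 of them reached the filter's level in fewer than 3 WT libraries and so were kept partly because IL-33 KO was high. In the 14 that reached it in every WT library the median was 1.48, with 5 free of overlap.

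The filter also removed several of the members with the widest gaps. Genes had to reach about 10 counts in 3 libraries, and Myh4, Tnnt3, Mybpc2, Tcap, Pvalb and Trdn reached it in IL-33 KO 1 and 3 alone. DESeq2, which gave an adjusted p for 37 of the 38 members, called 17, all higher in IL-33 KO, where it called 1.01% of its tested genes higher. They were Acta1, Actn3, Atp2a1, Cacna1s, Ckm, Mybpc2, Myh1, Myh4, Myot, Myoz1, Neb, Pvalb, Pygm, Ryr1, Tnnt3, Trdn and Xirp2, with no slow-fibre gene among them. Of these 17, only Neb, Pygm and Ryr1 reached the edgeR filter's level in every WT library. The rest were low in WT and high in IL-33 KO 1 and 3, so the count of 17 is also given as a description. Without IL-33 KO 2, edgeR called 10 of 15918 tested genes, 9 of them higher in IL-33 KO, and 7 were members (Acta1, Atp2a1, Mybpc2, Myh1, Myh4, Pvalb and Tnnt3). The members tested then numbered 34 instead of 23, and all of the 7 but Myh1 reached the filter's level in at most 1 WT library. They were thus tested only because the remaining IL-33 KO libraries, 1 and 3, were high, and their count is given as a description. Without IL-33 KO 1 and 3 together, a choice made after the data were seen, edgeR called 0 of 25 tested members, with a median log2 fold change of 0.23. Whether fast and slow genes differ in their genotype effect was not tested.

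Among the 50 tested genes with the largest log2 fold changes toward IL-33 KO, the smallest of which was 2.35, 8 were members (Acta1, Atp2a1, Actn3, Ckm, Myl1, Myh1, Ttn and Neb). Another 25 were immunoglobulin genes. A list of 50 other skeletal muscle genes had 28 tested genes, 24 higher and 4 lower, a median log2 fold change of 0.62, and 0 called by edgeR at an adjusted p of 0.05. At an unadjusted p under 0.05 it had 7 higher and 0 lower, and DESeq2 called 4. Cmya5, a cytoskeletal protein of striated muscle, was at 7.13, 2.19 and 9.09 CPM in the IL-33 KO libraries against 1.71, 1.88 and 2.13 in the WT libraries. Lmod2, an actin filament nucleator, was at 4.34, 2.32 and 3.63 CPM against 1.06, 2.01 and 1.66.

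The most counted genes of that list did not follow the fast fibre genes. Fbxo32, a ubiquitin ligase that is also made outside muscle, was at 48.7, 61.3 and 32.1 CPM in the IL-33 KO libraries against 25.1, 46.7 and 45.6 in the WT libraries. Dmd, dystrophin, was at 28.5, 21.7 and 18.6 CPM against 11.2, 12.2 and 21.5, and Srl, sarcalumenin, at 6.41, 6.33 and 8.996 against 5.39, 4.02 and 5.72. Cacna2d1 and Cacnb1, calcium channel subunits, had log2 fold changes of 0.08 ± 0.23 and -0.07 ± 0.21 (SE), and Jph2, junctophilin, 0.20 ± 0.22. The summed level of the list differed less between libraries than that of the members, at 135 to 169 CPM in IL-33 KO and 79.4 to 123 in WT.

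Genes of muscle stem cells and of muscle formation were near the limit of detection. Of 12 such genes only Mef2c and Pax3, which other cells also use, were tested, with log2 fold changes of 0.36 ± 0.21 and 0.50 ± 0.34 (SE). Myf5 had 0 counts in all libraries, Pax7 had 2 in WT 3 alone, and Myod1 and Myog had 0 to 2 counts in any library, all in IL-33 KO 1 and 3; these 4 were named after their values were seen. Further slow-fibre genes gave 3 higher and 3 lower of 6, with Csrp3 at 1.09 ± 0.82 and Myh7b at 0.64 ± 0.55 (log2 fold change ± SE). Of the slow myosin light chains, Myl2 was at 2.11, 1.81 and 0.532 CPM in the IL-33 KO libraries against 1.31, 2.27 and 2.37 in the WT libraries, lowest in IL-33 KO 3.

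Other kinds of muscle did not show a rise in IL-33 KO 1 and 3 as large as that of the fast fibre genes. The smooth muscle list had 9 tested genes, 7 higher and 2 lower, with a sum of 312 to 467 CPM in IL-33 KO and 250 to 375 in WT, and no gene at 0. Its genes with the smallest p were Tagln and Myh11, smooth muscle myosin. Tagln was at 120.2, 63.8 and 88.1 CPM against 54.98, 83.9 and 70.1, highest in IL-33 KO 1 and 3. Myh11 was at 28.4, 31.1 and 21.9 against 13.4, 24.6 and 25.6. All 9 tested cardiac genes were lower in IL-33 KO, led by Nppb (log2 fold change -0.88 ± 0.22 SE, adjusted p 0.389 in edgeR and 0.0498 in DESeq2, which called it alone in this list) and Tnni3 (-0.73 ± 0.28, adjusted p 0.529 in edgeR). The cardiac list summed to 30.1, 36.3 and 30.1 CPM in IL-33 KO 1, 2 and 3, against 43.0 to 43.6 in WT. IL-33 KO 1 and 3 were thus the lowest libraries for these genes. The widely expressed counterparts of the members, such as the actins Actb and Actg1 and the brain creatine kinase Ckb, gave 7 higher and 9 lower of 16, with a median log2 fold change of -0.11. Myh9, non-muscle myosin, had the smallest p there (0.33 ± 0.15 SE), ahead of Myl12a (-0.34 ± 0.19).

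Levels of markers of other skin layers also differed between the genotypes' libraries, and their part in the muscle differences was not tested. All 15 hair follicle genes had higher mean levels in IL-33 KO skin, 15 of them at an unadjusted p under 0.05 but 0 at an adjusted p of 0.05 in edgeR, and 9 were called by DESeq2. Their sums were 10966 to 22704 CPM against 2762 to 6308, and the smallest p were those of Krt72 (2.19 ± 0.29) and Dlx3 (1.41 ± 0.23; log2 fold change ± SE). By library the follicle sum was 22704, 11525 and 10966 CPM in IL-33 KO 1, 2 and 3. All 12 adipocyte genes had higher means in IL-33 KO, 0 of them at an unadjusted p under 0.05, with sums of 825 to 1185 CPM in IL-33 KO and 212 to 903 in WT, none at 0, and Retn (1.10 ± 0.48) and Lpl (0.91 ± 0.44) had the smallest p. WT 1 was lowest for adipocyte genes and WT 2, at 903 CPM, lay above IL-33 KO 2 and 3. Epidermal genes were lower in 11 of 12, led by Krtdap (-0.97 ± 0.33) and Flg (-0.68 ± 0.35). Schwann cell genes were split, 3 higher and 5 lower of 8, with sums of 132 to 136 CPM in IL-33 KO and 133 to 176 in WT, and the smallest p for Prx (0.44 ± 0.19) and Pmp22 (-0.30 ± 0.19). Fibroblast genes were lower in 7 of 8, led by Lum (-0.66 ± 0.24) and Dcn (-0.47 ± 0.18), and endothelial genes were higher in 5 of 8, with the smallest p for Vwf (0.36 ± 0.14) and, in the other direction, Emcn (-0.49 ± 0.25). As log2 of summed CPM over the WT mean, slow fibre genes were at 0.98, 0.13 and 1.14 in libraries IL-33 KO 1, 2 and 3. This sum was highest in the same 2 libraries as that of the fast fibre genes. In IL-33 KO 3, however, 8.46 of its 14.1 CPM came from Mybpc1, which fast fibres also express in part. Tnni1 was no higher there than in IL-33 KO 2 (4.59 against 4.597 CPM), and Tnnc1 was at its lowest, 0.145 CPM from 3 counts.

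**Figure D4:**
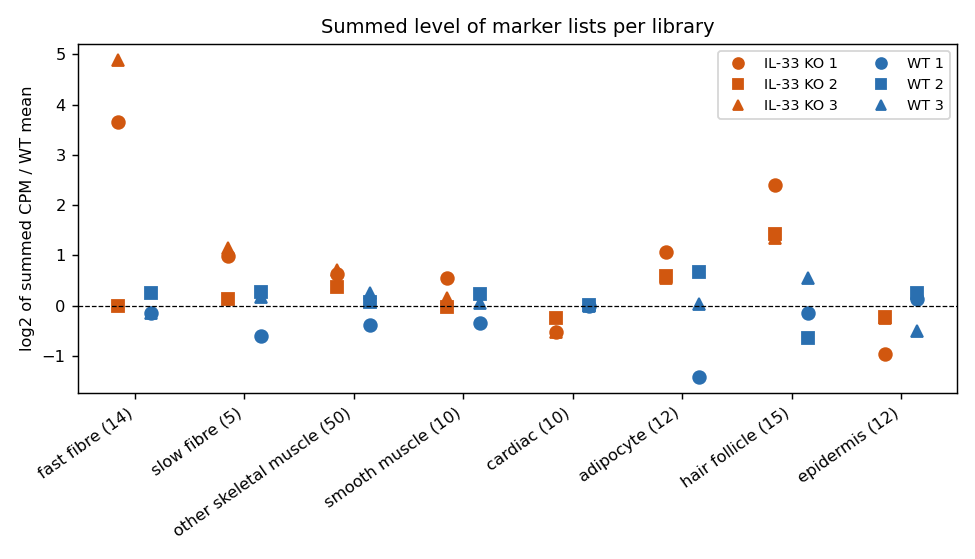
Log2 of the summed CPM of 8 gene lists in each library over the mean of the 3 WT libraries, with IL-33 KO in orange, WT in blue, the library number as marker shape and the number of genes in parentheses. Fast fibre genes reach 3.65 in IL-33 KO 1 and 4.89 in IL-33 KO 3 while IL-33 KO 2 sits at the WT mean, and slow fibre, other skeletal muscle, adipocyte and hair follicle genes are above the WT mean in all 3 IL-33 KO libraries.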

How the data were processed

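RNA of 6 mouse back skin libraries, 3 IL-33 KO and 3 WT, was sequenced. The authors deposited a table of raw read counts per gene and one of FPKM, both for all libraries, per the file headers. STAR, RSEM and mm10 are named, without versions, in the submitters' processing notes; strand handling was not given in the sources used here. The deposited FPKM equal the count over gene length and library total.

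The 38 members, the 19 gene lists and the tests were chosen with earlier results of these data known. All 38 members are accounted for; of other lists the 2 tested genes with the smallest p are named, and the 6 most counted of muscle lists. Counts were tested with edgeR 4.0.16 (R 4.3.3; filterByExpr with a minimum count of 10, TMM scaling, quasi-likelihood F test, two-sided, Benjamini-Hochberg adjustment over 15720 genes, threshold 0.05). CPM use the same scaling. DESeq2 1.42.0 and limma 3.58.1 on log2(FPKM + 1) and log2(FPKM + 0.1) were alternatives, beside other scalings, no filter, a replicate block and leaving out libraries. The fits were tested on simulated data with the same relative spread in every gene. There 4.26% of edgeR calls and 7.48% of DESeq2 calls were false. That setting is unlike the members, many of which differed widely between IL-33 KO libraries. Libraries held 20459574 to 24359612 counts, and no 2 held the same values. Binomial intervals are exact, at 95%, and those of ratios pool the libraries of a genotype. Positions are the deposited ones, and overlaps were read from GENCODE M21. Promoters of 250 bases were taken from RefSeq (GRCm38.p6) by symbol; no protein sequences were used here. A result on 1 gene is not reported here.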

Additional observations from a re-analysis of the deposited data

How the results depend on the processing

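The direction of most member values held under other processing, and what moved was mainly the count of genes called. edgeR called 3 genes of all tested; it called 5 with upper quartile factors, 5 with library totals alone, and 33 without a filter, while DESeq2 called 233. limma called 15 on log2(FPKM + 1), 11 on log2(FPKM + 0.1) and 6 on log2(FPKM + 1) unfiltered, where the members' median log2 fold change was 0.72. Leaving out 1 library gave 2 to 24 genes called, 8 to 32 of 23 to 34 tested members without overlap in either direction (19.9% to 36.5% of all tested genes) and a median of 1.18 (IL-33 KO 3 left out) to 3.21 (IL-33 KO 2 left out). At the low end, 8 of 23 did not overlap without IL-33 KO 3, where 28.6% of all tested genes did not. At the high end, 32 of 34 did not overlap without IL-33 KO 2, where 22.8% of all tested genes did not. That setting tested members kept only because IL-33 KO 1 and 3 were high. The 36.5% was without WT 3, where 15 of 34 members did not overlap. Without WT 3 the 24 genes included 0 members. Without a filter 15 of 38 members did not overlap, against 11.9% of all 23874 genes, and 0 members were called (smallest adjusted p 0.0633 in edgeR). The cause of these shifts was not tested.

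Without IL-33 KO 1 and IL-33 KO 3 together, a setting chosen after seeing the data in which the lone IL-33 KO library is assumed to vary like WT, 0 genes were called and the members' median was 0.23. Log2 fold changes then reversed for Tnni2 (-0.95), Ttn (-0.56), Actn2 (-0.043), Myh1 (-0.13), Eno3 (-0.014) and Ampd1 (-0.24). Leaving out 1 library moved Ampd1 between -0.40 (IL-33 KO 3 left out) and 0.24 (IL-33 KO 1 left out), and it was also negative without WT 3 (-0.17).

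Same-numbered libraries of the genotypes did not deviate together from their genotype means (correlations of -0.307, -0.128 and -0.434). With 3 libraries per genotype such deviations must offset each other, so this cannot show whether same-numbered libraries share more than a number. With the replicate block 2 genes were called, 0 of them members, the members' median was 1.72 and Ampd1 was at -0.030.

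The slow share in IL-33 KO 2 and WT 1, 2 and 3 was 53.9%, 46.0%, 52.9% and 60.7% with other slow genes added, and 42.8%, 33.3%, 41.0% and 46.1% from raw counts instead of FPKM. Depth limits the genes with under 10 counts in WT. Counting intervals of ratios were computed only for members with 1 to 3 WT counts, and they were wide. Others, such as Myh4 with 5 WT counts, have ratios without an interval.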
